A study of Homo sapiens with 2 samples.

Results

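The tetraspanins and the related TM4SF proteins of SW620 cells were compared between a SOX2 knockdown culture and a mock knockdown culture. SW620 is an established human colorectal cancer line that came from a tumour-bearing lymph node. The set held 10 genes out of 19775 with a probe set of their own: 7 tetraspanins, TSPAN1, TSPAN8, CD9, CD63, CD81, CD82 and CD151, and 3 TM4SF genes, TM4SF1, TM4SF4 and TM4SF5. They were chosen by family with their differences on these same arrays already known, and every probe set annotated to 1 of these symbols alone was taken, 17 in all out of 41091. Their differences are therefore a description, and no test was made of them.

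The SOX2 knockdown cells carried a short hairpin RNA against SOX2, brought in by lentivirus. The mock knockdown cells carried a hairpin without a target, and both cultures grew in RPMI-1640. Each group held 1 single-colour Affymetrix array, so there were no replicates and no difference could be tested, which limits how far any value can be trusted. How many hairpins or clones stood behind each culture was not stated. The sample titles end in KO where the source names speak of knockdown, and the sample descriptions name mouse liver, which neither the source names nor the organism field does.

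Tetraspanins are small proteins that cross the cell membrane several times and gather integrins, adhesion receptors, proteases and growth factor receptors into membrane patches. Several of them are carried on the vesicles that cells release, and CD9, CD63 and CD81 are widely used as vesicle markers. The TM4SF proteins, also called the L6 family, share the layout of the membrane segments but not the sequence of true tetraspanins. In the gut, TSPAN8, TM4SF1 and TM4SF4 are best known as proteins of the epithelial surface and of tumours that arise from it.

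All values are deposited intensity values on a linear scale, and all differences are log2 of the SOX2 knockdown array minus log2 of the mock knockdown array. Intensities below 68.5, half-way in the ranking of all values other than controls, are called under the floor, and a difference from such a value is given as a bound. Probe sets differ in how they bind, so each is compared only with itself on the other array. The brightest probe set of SOX2, 228038_at, checks the labels: it stood at 20.9 on the SOX2 knockdown array and 2077 on the mock array, at least 30.3-fold lower. Another, 213721_at, stood at 120 and 333, with a difference of -1.47, so the apparent depth of the knockdown depended on the probe set. Between probe sets of a gene, differences spread with an SD of 0.49 over 6440 genes, which measures agreement within this pair of arrays and not between cultures.

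On the SOX2 knockdown array, 4 of the 10 members were higher by at least 2-fold and 0 were lower by as much. Those higher were TM4SF4, TSPAN8, TSPAN1 and CD82. In a culture measured in bulk, more cells carrying a transcript and more transcript per cell cannot be told apart. Across all 13609 genes that reached the floor, 8.44% were at least 2-fold higher and 7.29% at least 2-fold lower. Since the members were picked with these differences known, nothing is read from their share. The remaining 6 members lay within 2-fold, and 5 of them within 1.5-fold. Of all genes that reached the floor, 70.2% lay within 1.5-fold. The median difference of the members was 0.47, against -0.0063 over all genes. The member nearest above the limit of 2-fold was CD82, 4.19-fold higher, and the nearest below it was CD151, 1.58-fold higher.

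The promoters of the 4 genes that were higher are shown because they differ from each other in make-up, and that of TM4SF1 is shown beside them because it is the nearest measured gene to TM4SF4 on one side, with 4 unmeasured genes between, and hardly differed. Each runs from 250 bases before to 50 bases after the gene's start, 5′ to 3′ on the gene's own strand, as RefSeq gives it for build GRCh38.p14. TM4SF4 lies at chr3:149474447-149474746 on the plus strand, TSPAN8 at chr12:71157950-71158249 on the minus strand and TSPAN1 at chr1:46174837-46175136 on the plus strand. CD82 lies at chr11:44565413-44565712 on the plus strand and TM4SF1 at chr3:149377600-149377899 on the minus strand. Capitals mark every match on either strand to the SOX core motifs CATTGT or CTTTGT, the CDX core motif TTTATG, the TATA box TATAAA and the GC box GGGCGG.
TM4SF4: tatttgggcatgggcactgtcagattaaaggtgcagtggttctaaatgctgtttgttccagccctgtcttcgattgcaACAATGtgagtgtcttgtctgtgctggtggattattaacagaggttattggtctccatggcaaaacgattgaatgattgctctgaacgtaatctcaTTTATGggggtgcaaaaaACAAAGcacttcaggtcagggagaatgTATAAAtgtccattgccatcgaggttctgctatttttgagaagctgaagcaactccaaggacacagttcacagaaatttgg
TSPAN8: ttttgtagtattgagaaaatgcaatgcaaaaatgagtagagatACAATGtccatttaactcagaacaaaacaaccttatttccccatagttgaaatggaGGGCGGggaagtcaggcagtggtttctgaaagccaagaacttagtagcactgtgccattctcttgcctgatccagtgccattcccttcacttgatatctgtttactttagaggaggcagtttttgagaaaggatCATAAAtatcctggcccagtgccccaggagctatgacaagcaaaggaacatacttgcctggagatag
TSPAN1: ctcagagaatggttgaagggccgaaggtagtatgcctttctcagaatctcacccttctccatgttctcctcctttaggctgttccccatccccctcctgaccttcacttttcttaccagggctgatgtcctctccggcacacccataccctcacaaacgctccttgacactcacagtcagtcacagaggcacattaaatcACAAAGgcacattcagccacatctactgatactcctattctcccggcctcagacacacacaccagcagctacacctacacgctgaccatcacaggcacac
CD82: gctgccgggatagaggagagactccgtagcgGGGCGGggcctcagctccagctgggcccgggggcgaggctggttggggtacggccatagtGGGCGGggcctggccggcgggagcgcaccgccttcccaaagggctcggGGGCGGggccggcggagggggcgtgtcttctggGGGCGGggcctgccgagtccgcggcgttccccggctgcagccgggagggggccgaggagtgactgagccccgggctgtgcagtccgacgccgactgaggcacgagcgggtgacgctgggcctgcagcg
TM4SF1: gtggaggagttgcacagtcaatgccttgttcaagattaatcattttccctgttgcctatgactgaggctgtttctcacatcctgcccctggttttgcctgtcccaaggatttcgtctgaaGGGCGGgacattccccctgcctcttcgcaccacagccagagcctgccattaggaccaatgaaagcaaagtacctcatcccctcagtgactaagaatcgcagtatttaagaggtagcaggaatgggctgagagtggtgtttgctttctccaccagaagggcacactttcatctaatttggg

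The promoter of TM4SF4 held 1 match to each SOX motif, 1 to the CDX motif and 1 to the TATA box, and no GC box. The TATA box began 31 bases before the start. That of TSPAN8 held 1 match to CATTGT, 1 to the CDX motif and 1 GC box. That of TSPAN1 held 1 match to CTTTGT alone. That of CD82 held 4 GC boxes and no other match, and that of TM4SF1 held 1 GC box and no other match. Over 34943 promoters of this length, 10.8% held CATTGT, 16.1% CTTTGT, 10.6% TTTATG, 11.6% TATAAA and 44.9% GGGCGG on either strand. No motif shares letters with another at the places marked. A match of this length describes the letters in the window and shows no binding.

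Promoters were found for 8 of the 10 members, without CD81 and CD151. Base composition set CD82 apart from the other genes that were higher. The GC content was 76.7% in the CD82 promoter, with 33 CpG dinucleotides in 300 bases. It was 42.7% in that of TM4SF4, 42.3% in that of TSPAN8 and 52.0% in that of TSPAN1, with 4, 1 and 5 CpG dinucleotides. Among the members that lay within 2-fold, the CD63 promoter had a GC content of 78.3% and 36 CpG dinucleotides, CD9 55.3% and 12, TM4SF5 56.7% and 5, and TM4SF1 50% and 4. The median over all promoters was 58.7%. Promoters poor in CpG dinucleotides thus stood beside members with large differences and beside members with small ones.

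TM4SF4, a surface protein of intestine and liver that can restrain the growth of cells at high density, had the largest difference among the 10 members. Its only probe set, 209937_at, had an intensity of 8274 on the SOX2 knockdown array and 26.8 on the mock array. The mock value lay under the floor and the other far above it, so TM4SF4 was at least 121-fold higher, a difference of at least 6.92. The plots show the difference as deposited, 8.27, which rests on a mock value under the floor.

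TM4SF1, the tumour-associated L6 antigen, stood high on both arrays. Its brightest probe set, 209386_at, had 6415 on the SOX2 knockdown array and 5735 on the mock array, a difference of 0.16. Probe set 209387_s_at had 3781 and 3281, a difference of 0.20, and 215034_s_at had 3298 and 2881, a difference of 0.19. All 3 were slightly higher on the SOX2 knockdown array, by less than the SD of 0.49 between probe sets given above. That SD does not measure spread between cultures. The 2 further probe sets of TM4SF1, 215033_at and 238168_at, were under the floor on both arrays.

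TM4SF5, a family member known for its activity in liver cancer cells, was measured near the floor. Probe set 206242_at had 142 on the SOX2 knockdown array and 150.0 on the mock array, a difference of -0.08. The arrays thus differed little for TM4SF5 and TM4SF1 and by at least 121-fold for TM4SF4. Of the other L6 family genes, TM4SF18 had 16.8 on the SOX2 knockdown array and 19.8 on the mock array, and TM4SF20 had 27.3 and 24.8. Both lay under the floor on both arrays, and TM4SF19 had no probe set of its own. TM4SF18 and TM4SF20 thus give no measured difference. Among the 3 L6 family genes that reached the floor, TM4SF4 was the only one with a difference of 2-fold or more.

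**Figure D1:**
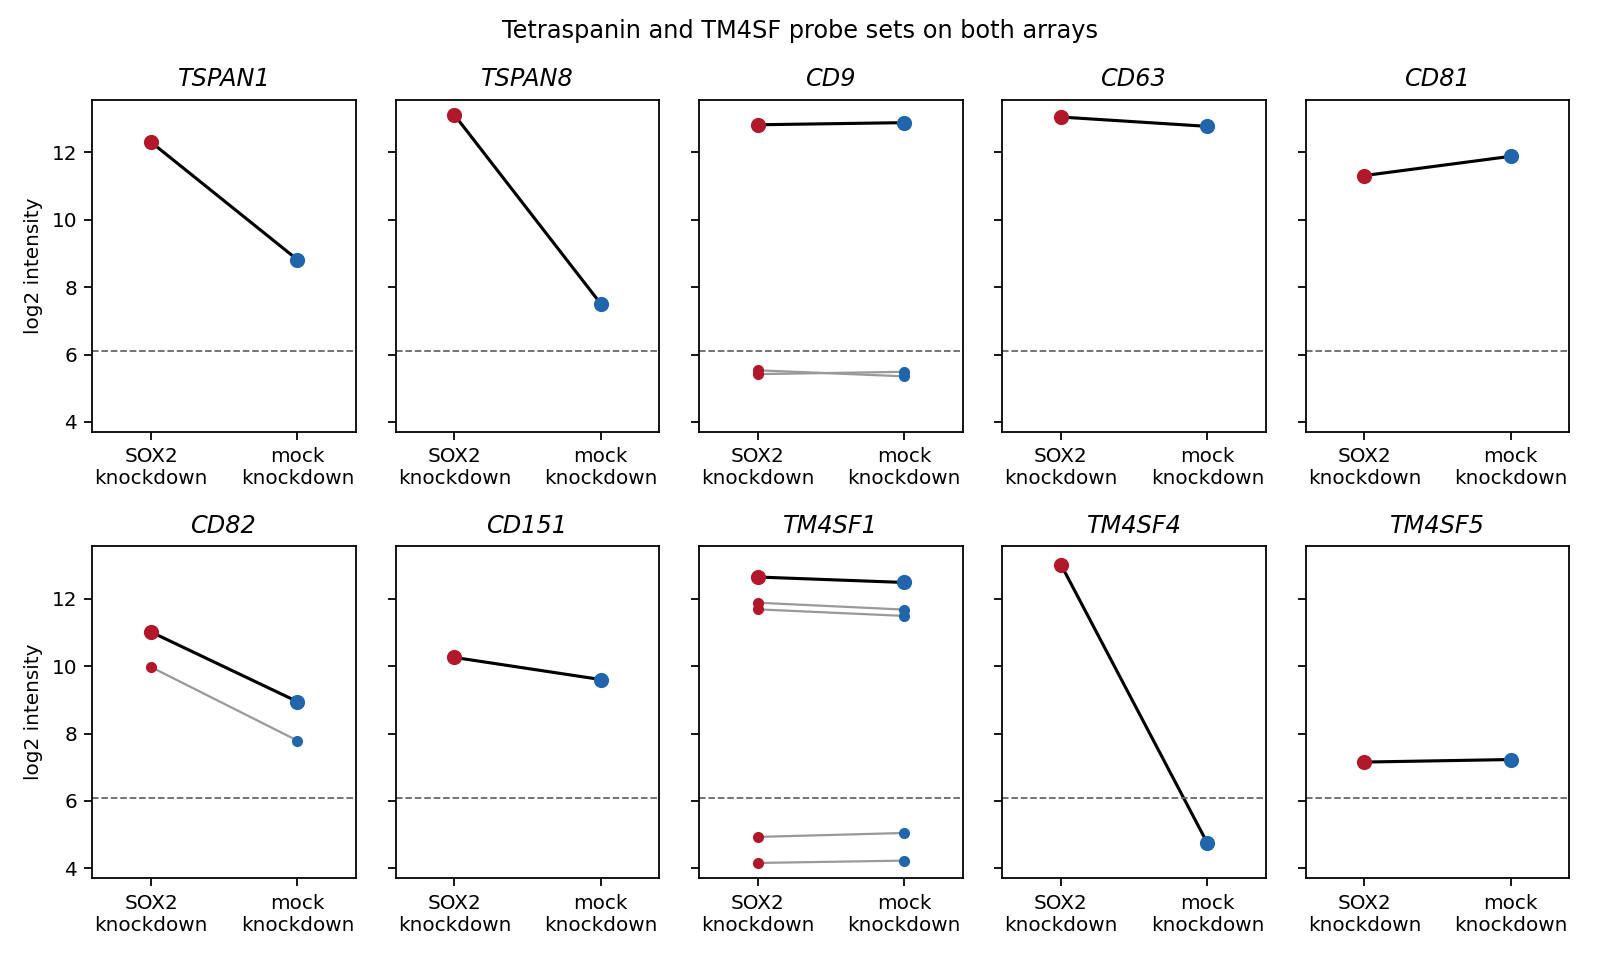
Log2 intensity of every probe set of the 10 members on the SOX2 knockdown array (red, left) and the mock knockdown array (blue, right), 1 array each, with 1 line per probe set and the brightest probe set in black. The dashed line is the floor at 6.10. TM4SF4, TSPAN8, TSPAN1 and CD82 slope down to the mock array, and the lines of the other 6 genes are nearly level or differ by less than 2-fold.

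TSPAN8, a tetraspanin first described as an antigen of gastrointestinal carcinomas and tied to tumour cell spread, had the second largest difference. Probe set 203824_at had 8879 on the SOX2 knockdown array and 182 on the mock array. Both values lay above the floor, and TSPAN8 was 48.8-fold higher, a difference of 5.61. It ranked 23rd from the highest of 13609 genes. TSPAN8 was measured by 1 probe set only, so no second measure of it exists on these arrays.

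TSPAN1, a tetraspanin of epithelial cells that is often raised in carcinomas, was also higher. Probe set 209114_at had 5064 on the SOX2 knockdown array and 450.4 on the mock array, above the floor on both. The difference was 3.49, or 11.2-fold, and 1.10% of all genes differed by as much or more in this direction. This gene too had 1 probe set.

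CD82, also called KAI1 and known as a suppressor of metastasis, was the only member with a difference of 2-fold or more that several probe sets measured. Probe set 203904_x_at had 2070 on the SOX2 knockdown array and 494 on the mock array, a difference of 2.07. Its name marks it as one that can match several transcripts. Probe set 228910_at, without that mark, had 1006 and 221, a difference of 2.18. The probe sets differed from each other by 0.12, less than the spread of 0.49. Of all genes, 2.91% had a difference at least as high as that of CD82.

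**Figure D2:**
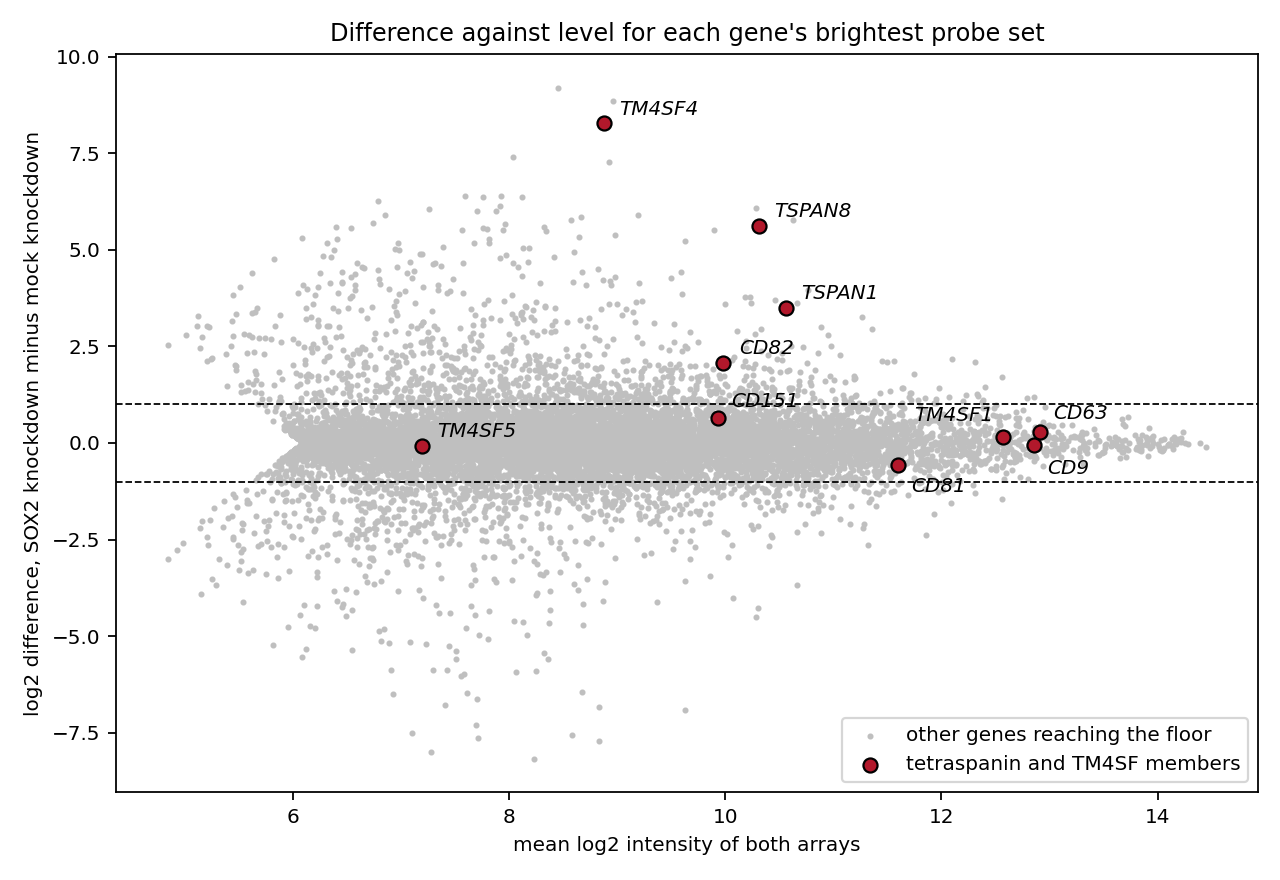
Log2 difference (SOX2 knockdown minus mock knockdown) against mean log2 intensity for the brightest probe set of each of 13609 genes that reached the floor (grey), with the 10 members in red. Dashed lines mark 2-fold. TM4SF4, at 8.27 as deposited, TSPAN8, at 5.61, TSPAN1, at 3.49, and CD82, at 2.07, lie above the upper line and no member lies below the lower one.

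The tetraspanins used as vesicle markers all lay within 1.5-fold, as did 70.2% of all genes that reached the floor. CD9, which takes part in cell adhesion and in the fusion of sperm and egg, had 7236 on the SOX2 knockdown array and 7558 on the mock array at 201005_at, a difference of -0.06. Probe sets 233317_at and 233322_at of CD9 were under the floor on both arrays. CD63, a tetraspanin of late endosomes and lysosomes, had 8481 and 7003 at 200663_at, a difference of 0.28. CD9 and CD63 lay well above the floor. Their differences were smaller than the SD of 0.49 between probe sets, which does not measure spread between cultures.

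CD81, a tetraspanin known as a receptor for hepatitis C virus, was the lowest of the members. Probe set 200675_at had 2544 on the SOX2 knockdown array and 3780 on the mock array, a difference of -0.57. It was 1.49-fold lower, and 15.2% of all genes had a difference as low or lower. The difference was larger than the SD of 0.49 between probe sets, which does not measure spread between cultures. CD9, CD63 and CD81 together therefore held 1 gene above 0 and 2 below it, with differences between -0.57 and 0.28.

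CD151, which binds laminin-binding integrins directly, had 1226 on the SOX2 knockdown array and 778 on the mock array at 204306_s_at, a difference of 0.66. It was 1.58-fold higher and below the limit of 2-fold. The single probe set of CD151 carries the mark of one that can match several transcripts.

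The other human tetraspanins were set beside the members. Of 26 such genes, 25 had a probe set of their own and 17 reached the floor. Of these, 2 were at least 2-fold higher and 1 at least 2-fold lower, 14 lay within 1.5-fold, and the median difference was -0.04. Across all genes that reached the floor, 8.44% were at least 2-fold higher, 7.29% at least 2-fold lower and 70.2% within 1.5-fold. Over the whole family, 24 of 32 tetraspanins with a probe set of their own reached the floor. Of those 24, 5 were at least 2-fold higher and 1 lower. The differences of TSPAN8, TSPAN1 and CD82 were above that of every other tetraspanin at its brightest probe set. Since the members were picked with these differences known, nothing is read from this contrast.

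TSPAN31, a tetraspanin encoded beside CDK4 and amplified with it in sarcomas, had 778 on the SOX2 knockdown array and 313 on the mock array at its brightest probe set, a difference of 1.31. Its other probe set differed by 1.26. TSPAN3, a widely expressed tetraspanin, had 5859 and 2685, a difference of 1.13, but its 3 probe sets ran from 0.26 to 1.13. TSPAN6 went the other way, with 908 on the SOX2 knockdown array and 2301 on the mock array, a difference of -1.34, and -1.25 at its other probe set. TSPAN13, among the brightest of the list, had 4186 and 4252, a difference of -0.02.

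The tetraspanins of the TspanC8 group carry the protease ADAM10 to the cell surface. All 6, TSPAN5, TSPAN10, TSPAN14, TSPAN15, TSPAN17 and TSPAN33, lay within 1.5-fold at their brightest probe sets, with differences between -0.51 and 0.52. So did 70.2% of all genes that reached the floor. TSPAN14 was less clear, since a further probe set had 625 on the SOX2 knockdown array and 247 on the mock array, a difference of 1.34. TSPAN12, a tetraspanin outside this group that acts in Norrin signalling, likewise differed by 0.50 at its brightest probe set and by 1.25 and 1.56 at its others. Both genes were singled out after their values were seen. ADAM10 itself had 3250 and 1739, a difference of 0.90, and 1.07 to 1.34 at its other probe sets. It too was named after its values were seen.

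Of the 25 tetraspanins outside the members with a probe set of their own, 8 were under the floor on both arrays. CD37, of leukocytes, had 56.3 on the SOX2 knockdown array and 66.9 on the mock array, and CD53, also of leukocytes, had 55.9 and 61.9. UPK1A and UPK1B, the tetraspanins of the bladder lining, and PRPH2, of photoreceptors, were also among them. They give no measured difference. ROM1, a relative of PRPH2 in photoreceptors, did reach the floor, with 153 on the SOX2 knockdown array and 121 on the mock array, and was named after its values were seen.

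Integrins, the receptors for the extracellular matrix, are the best known partners of tetraspanins. Of 12 listed subunits 10 reached the floor, 5 were at least 2-fold higher and 1 at least 2-fold lower, and the median difference was 0.89, against -0.0063 over all genes. Shares over all genes were 8.44% higher, 7.29% lower and 70.2% within 1.5-fold. The subunits were listed with earlier results of these data known, and with the probe set of smallest difference 3 were higher. ITGA3, a laminin-binding subunit and the classic partner of CD151, had 357 on the SOX2 knockdown array and 112 on the mock array, a difference of 1.67. The other 4 laminin-binding subunits listed lay within 1.5-fold at their brightest probe sets, among them ITGA6, with 3176 and 2617, and ITGB1, the common beta chain, with 9564 and 6966. Other probe sets of ITGB1 differed by 0.62 and 0.67, and the other one of ITGA7 by -0.83 as deposited, beyond 1.5-fold.

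The collagen-binding subunit ITGA1 had 310 on the SOX2 knockdown array and 43.6 on the mock array, at least 4.52-fold higher against the floor. ITGAV, of vitronectin receptors, had 1857 and 687, a difference of 1.44. ITGB5, its partner chain, had 4140 and 1318, a difference of 1.65, and its other probe sets ran from 0.49 to 2.28. ITGA5, of the fibronectin receptor, was lower, with 107 on the SOX2 knockdown array and 224 on the mock array, a difference of -1.06.

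Among 20 other surface and signalling partners 19 reached the floor, 5 were at least 2-fold higher and 2 at least 2-fold lower, with a median of 0.19. Over all genes that reached the floor, 8.44% were higher and 7.29% lower by as much. The partners were also listed with earlier results of these data known. With the probe set of smallest difference, 2 were higher and 1 lower. The claudin CLDN7, which joins EPCAM and TSPAN8 in a complex in gut tumour cells, had 1895 on the SOX2 knockdown array and 222 on the mock array, a difference of 3.10. EPCAM, the adhesion molecule of that complex, had 9898 and 8910, a difference of 0.15. CD44, the hyaluronan receptor of the same complex, had 2966 and 204, a difference of 3.86, while its other probe sets ran from 0.13 to 3.24. EGFR, a growth factor receptor that CD82 is known to restrain, had 858 and 159, a difference of 2.43, and 0.19 to 3.08 elsewhere.

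SDCBP, the adaptor syntenin that binds the tail of CD63, had 6609 on the SOX2 knockdown array and 2445 on the mock array, a difference of 1.43. The receptor MET had 7618 and 3682, a difference of 1.05, and its other probe sets ran from 0.49 to 1.30 as deposited. CLDN1, a claudin that binds CD9 and CD81, was lower, with 456 on the SOX2 knockdown array and 2254 on the mock array, a difference of -2.31. HBEGF, a growth factor precursor held at the surface with CD9, had 272 and 623, a difference of -1.19, and -0.19 at its least different probe set. The Ig-domain partners of CD9 and CD81 hardly differed, PTGFRN by 0.19, with -0.19 at its other probe set, and IGSF8 by 0.16. Both were named after their values were seen.

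Genes of vesicle formation and release were mixed. Of 21 listed, 20 reached the floor, 3 were at least 2-fold higher, 1 at least 2-fold lower as deposited and 12 within 1.5-fold, with a median difference of 0.23. Shares over all genes were 8.44% higher, 7.29% lower and 70.2% within 1.5-fold. These genes too were listed with earlier results known. RAB27B, a GTPase of vesicle docking and release, had 520 on the SOX2 knockdown array and 23.4 on the mock array, at least 7.59-fold higher. Its relative RAB27A had 247 and 354, a difference of -0.52, and was named after its value was seen. SMPD3, a sphingomyelinase of vesicle budding, had 182 and 58.6, at least 2.65-fold higher against the floor, though its other probe set differed by 0.30. CHMP4B, a subunit of the membrane-cutting ESCRT machinery, had 5175 and 2407, a difference of 1.10 that its other probe set matched at 1.10. RAB31 had 47.5 on the SOX2 knockdown array and 109 on the mock array, at least 1.60-fold lower against the floor. It was the only gene of the list counted as lower, and with values under the floor raised to it 0 were. LAMP1, a lysosomal membrane protein found beside CD63, had 8258 and 6611, a difference of 0.32.

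**Figure D3:**
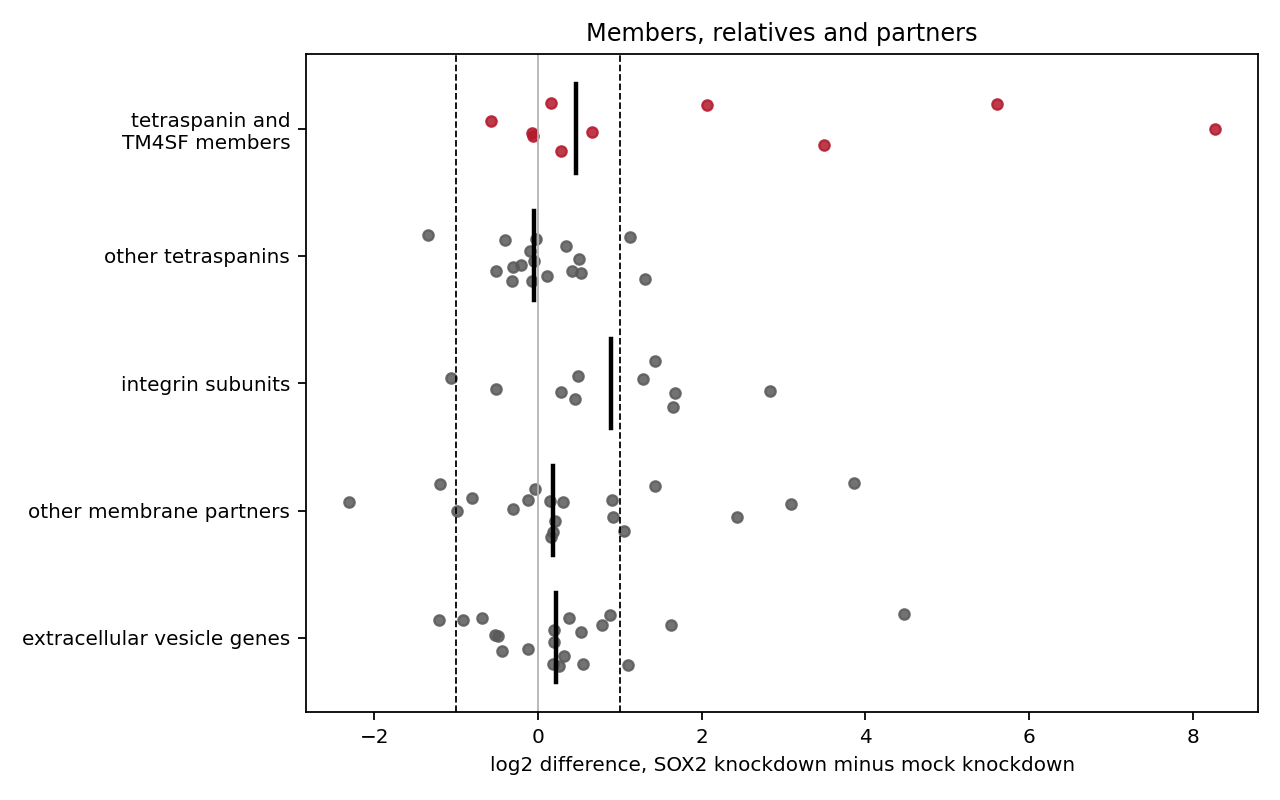
Log2 difference (SOX2 knockdown minus mock knockdown) at the brightest probe set of each gene that reached the floor, for the members (red) and for related genes and partners (grey), 1 point per gene, with the list median as a black bar and dashed lines at 2-fold. The points are spread at random within a row for legibility. TM4SF4, at 8.27 as deposited, and TSPAN8, at 5.61, lie to the right of all others shown, and the medians run from -0.04 for other tetraspanins to 0.89 for integrin subunits.

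Genes near each member along the chromosome were compared, by the gene order of assembly GRCh38.p14. The nearest measured gene on each side gave 20 neighbours, of which 5 were at least 2-fold higher and 1 at least 2-fold lower as deposited. The members TM4SF1 and TM4SF4 are among the 20, and TM4SF4 is among the 5. Across all genes that reached the floor, 8.44% were at least 2-fold higher and 7.29% at least 2-fold lower. Between a member and its nearest measured gene lay 0 to 6 genes without a measured value, so these are not always adjacent genes. On chromosome 3, TM4SF1 is the nearest measured gene on one side of TM4SF4, and TM4SF4 the nearest on one side of TM4SF1. Their differences were at least 6.92 for TM4SF4 and 0.16 for TM4SF1. On the far side of TM4SF4, WWTR1, the Hippo pathway coactivator TAZ, had 39.1 on the SOX2 knockdown array and 95.7 on the mock array, a difference of -0.48 or lower. The large difference of TM4SF4 was thus not seen in the measured genes on either side of it.

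The nearest measured gene on one side of TSPAN8 on chromosome 12, past 3 without a value, was LGR5, the receptor that marks intestinal stem cells, which had 229 on the SOX2 knockdown array and 422 on the mock array, a difference of -0.88. On its other side the phosphatase gene PTPRB had 192 and 45.9, a difference of at least 1.49. The neighbours of TSPAN1 on chromosome 1, PIK3R3 and POMGNT1, differed by 0.79 and -0.48. Those of CD82 on chromosome 11, EXT2 and TP53I11, differed by 0.10 and 0.28. Each of the 4 members that were higher stood above both its neighbours. They were picked with their large differences known, so nearly any neighbour would lie below them, and nothing is read from this.

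Beside the members that lay within 2-fold, 3 neighbours were at least 2-fold higher apart from TM4SF4. CXCL16, near TM4SF5, differed by 1.55, CRACR2B, near CD151, by 1.11, and PLEKHG6, near CD9, by 1.09. CD81 stood between another tetraspanin gene, TSPAN32, at -0.10, and TSSC4, at 0.12. The neighbours of CD63, BLOC1S1 and GDF11, differed by -0.48 and 0.11. VWF, on the other side of CD9, differed by -0.13, POLR2L, near CD151, by 0.29, HPS3, near TM4SF1, by -0.19, and VMO1, near TM4SF5, by 0.04.

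**Figure D4:**
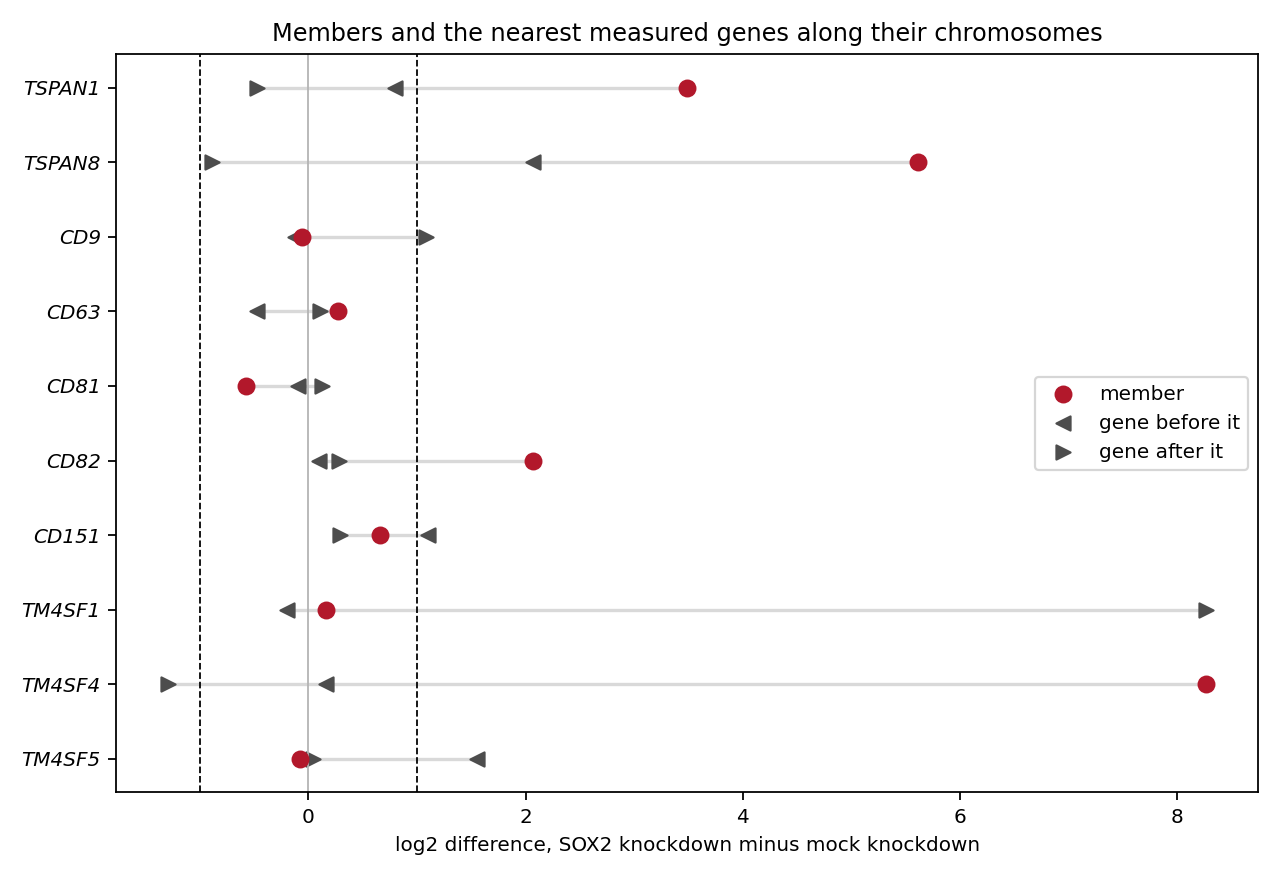
Log2 difference (SOX2 knockdown minus mock knockdown) of each member (red) and of the nearest measured gene before and after it in chromosome order (triangles pointing left and right), as deposited, with dashed lines at 2-fold. TM4SF4, at 8.27, TSPAN8, TSPAN1 and CD82 lie to the right of both neighbours, and TM4SF1, at 0.16, lies far to the left of its neighbour TM4SF4.

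Epithelial markers of the gut were present on both arrays. All 8 listed reached the floor, with summed intensities of 63217 on the SOX2 knockdown array and 50482 on the mock array, led by KRT18 and KRT8. The microvillus gene VIL1 was the only one lower on the SOX2 knockdown array, with a difference of -1.25, while the intestinal factor CDX2 lay near the floor, at 116 and 69.2. Of 9 measured leukocyte markers 3 reached the floor, and PTPRC, the common leukocyte antigen, stood at 19.9 on the SOX2 knockdown array and 16.7 on the mock array. CD14, of monocytes, had 156 and 43.6. LUM, of fibroblasts, had 17.8 on the SOX2 knockdown array and 71.7 on the mock array, a difference of -0.07 or lower against the floor. The leukocyte sums were 632 and 525, the fibroblast sums 519 and 619, and the endothelial sums 298 and 327. No array value is 0, and 6 of 9 leukocyte, 2 of 6 fibroblast and 3 of 5 endothelial markers lay under the floor on both arrays. The part of other cell types in the differences of the members was not tested.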

How the data were processed

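The authors deposited 1 intensity value per probe set and array on a linear scale, and the submitters' processing notes name RMA as the method. Neither its version and settings nor the return to a linear scale is described. RMA equalises the distributions of arrays, so a change in total RNA cannot be seen. The labels placed 1 array in each group. Of 54675 probe sets 62 were controls, and a platform annotation gave 1 symbol to 41091 and several to 1801. From RefSeq, assembly GRCh38.p14, came symbols (0 changed), gene order and promoters.

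Log2 values were used without a pseudocount or renormalization. Each gene was represented by its brightest probe set, by the mean of both arrays. A gene entered when either array reached the floor, and bounds were taken against the floor. Genes were counted at 2-fold, since single arrays allow no test. The members and gene lists were chosen with earlier results of these data known. Named beside the members were up to 4 genes per list and direction past 2-fold, the 2 brightest of each list, neighbours and SOX2. Those 2 brightest among non-epithelial markers are given by their sums. Further genes were named after their values were seen. Alternatives were other normalizations, floors, probe set choices, limits and a pseudocount of 32. Counting was tested on simulated data with known differences, planted only in genes well above the floor. The simulation did not test counts near the floor or spread between cultures. Python 3.11.15, numpy 2.4.6, pandas 2.3.3 and statsmodels 0.14.6 were used.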

Additional observations from a re-analysis of the deposited data

How the results depend on the processing

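Under all 13 alternatives TM4SF4, TSPAN8, TSPAN1 and CD82 stayed at least 2-fold higher, and no member became 2-fold lower. Many of these could not change the values: TM4SF4, TSPAN8 and TSPAN1 have 1 probe set each, so other probe set choices gave the same difference. Another floor percentile or fold limit does not alter a difference either. The difference of TM4SF4 was 6.92 with values under the floor raised to it and 7.14 with a pseudocount of 32, since its mock value is dim. TSPAN8 ran from 5.38 to 5.63, TSPAN1 from 3.40 to 3.52 and CD82 from 2.0 to 2.18. The median of the members ran from 0.28 to 0.66. CD9, within 1.5-fold, ran from -0.08 to 0.02. With the floor at the 75th percentile TM4SF5 was no longer measured, and CD151 had no probe set left after leaving out those marked as matching several transcripts. At 1.5-fold, 2044 genes were higher and 2012 lower, vesicle genes counted 5 higher and 3 lower, and other membrane partners 4 lower. At 3-fold, 604 genes were higher and 467 lower, other tetraspanins counted 0 and 0, integrin subunits 3 and 0, other membrane partners 3 and 1, and vesicle genes 0 lower. With the probe set of smallest difference, other tetraspanins counted 1 higher, integrin subunits 3, other membrane partners 2 higher and 1 lower, and vesicle genes 0 lower. With the mean of probe sets, other membrane partners counted 1 lower and vesicle genes 1 higher. With the pseudocount, integrin subunits and vesicle genes each counted 0 lower. RAB31 was the only vesicle gene counted as lower, and that count was also 0 with the floor at the 75th percentile, with values raised to the floor and after leaving out those same probe sets. The counts at 1.5-fold and 3-fold moved because the limit itself was changed. Every probe set of RAB31 that reached the floor carries that mark, and its bound against the floor was 1.60-fold. Why the other counts moved was not tested. No paired analysis was possible because each group held 1 array. With no replicates, spread between cultures was not measured.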
